A study of Mus musculus with 2 samples.

Results

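The nuclear-encoded genes of the mitochondrial respiratory chain were followed through mouse blood neutrophils. Members were the genes that have a protein-coding transcript in GENCODE M21 and a symbol that begins with Nduf, Uqcr, Atp5, Cox4i, Cox5, Cox6, Cox7 or Cox8, or that is Cyc1, Sdha, Sdhb, Sdhc or Sdhd. The rule itself reads names, not measured values. It gave 95 genes of the 21901 with a protein-coding transcript. They carry 94 symbols, since Atp5o has 2 gene models. By their known roles, 83 are structural subunits, 9 are assembly factors and 2 are relatives of subunits, Cox7a2l and Ndufa4l2. The remaining gene is the second Atp5o model, which spans a neighbouring gene and had 0 counts in both libraries, so it was kept out of the medians.

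The study holds a single group, neutrophils from the peripheral blood of adult C57BL/6J mice aged 5 to 6 weeks, with 2 total RNA libraries numbered as biological replicates 1 and 2. No genotype, treatment or second condition is given in the labels, sex is listed as not collected, and both libraries name the same donor. The spread between the libraries may therefore be technical, and an n of 2 throughout means these 2 libraries. Levels below are TPM, a value per transcript length scaled to a fixed total per library, so levels of different genes can be compared. In bulk RNA, a gene's level in one cell type and the share of that cell type among the cells cannot be told apart.

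The respiratory chain passes electrons from NADH through complex I, or from succinate through complex II, to coenzyme Q, then through complex III and cytochrome c to complex IV, which reduces oxygen. Complexes I, III and IV pump protons across the inner mitochondrial membrane, and complex V, the ATP synthase, uses the gradient to make ATP. All of complex II and most subunits of the other complexes are encoded in the nucleus, while a small set is encoded in mitochondrial DNA. Neutrophils are known for few mitochondria and for drawing ATP mainly from glycolysis.

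The 3 genes for the c subunit of complex V show why levels of closely related members need care. Atp5g1, Atp5g2 and Atp5g3 encode one mature protein that forms the rotating ring in the membrane. The last 90 coding bases of their most abundant full-length coding transcripts (GENCODE M21, GRCm38) are given here, with the positions that differ among the 3 genes in capitals. They lie at chr11:96073104-96073193, chr15:102663014-102663103 and chr2:73908593-73908682, all on the minus strand.
Atp5g1: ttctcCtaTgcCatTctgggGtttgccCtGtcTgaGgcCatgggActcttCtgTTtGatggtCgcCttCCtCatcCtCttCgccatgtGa
Atp5g2: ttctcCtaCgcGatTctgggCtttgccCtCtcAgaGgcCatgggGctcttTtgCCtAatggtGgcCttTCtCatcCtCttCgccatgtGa
Atp5g3: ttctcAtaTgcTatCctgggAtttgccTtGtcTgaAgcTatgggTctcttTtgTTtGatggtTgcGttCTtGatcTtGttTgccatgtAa
Of these bases 24 differ among the 3 genes, and 19 of the 24 are the last base of a codon. Atp5g1 and Atp5g2 differ at 12 of 90 bases, Atp5g1 and Atp5g3 at 17, and Atp5g2 and Atp5g3 at 23. The functional genes can thus be told apart over this stretch. Processed pseudogenes, which are intronless copies of a gene's RNA elsewhere in the genome, can be closer: the whole coding sequence of Atp5g2, 441 bases, is repeated without a difference in the pseudogene Gm10175 on chromosome 7.

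A second pair shows a copy that differs from its gene at some bases. Uqcrb, which encodes a small subunit of complex III, has the copy Gm2962 at 98.2% identity over its 336 coding bases. Coding bases 163 to 312 of Uqcrb (gene at chr13:66900617-66905378, minus strand) are set against the copy at chr1:170925333-170925482, minus strand, with the 5 differing bases in capitals.
Uqcrb: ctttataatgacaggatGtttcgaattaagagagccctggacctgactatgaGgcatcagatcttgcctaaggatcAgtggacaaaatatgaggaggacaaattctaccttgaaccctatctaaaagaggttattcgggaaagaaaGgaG
Gm2962: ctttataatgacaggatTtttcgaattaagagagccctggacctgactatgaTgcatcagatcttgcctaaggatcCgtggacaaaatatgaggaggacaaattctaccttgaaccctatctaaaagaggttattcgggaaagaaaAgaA
Over the full alignment of 336 bases, the longest run that both share holds 116 bases. The expected counts of Uqcrb, 325.64 and 293.84, were not whole numbers, so the differing bases did not settle every read.

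Respiratory chain genes were detected far more often than nuclear protein-coding genes at large. In both libraries, 1 TPM or more was reached by 79 of the 95 members, or 83.2%, against 34.9% of 22015 nuclear protein-coding genes. At least 10 expected counts in both libraries were held by 86 members, against a background of 51.6%. Under a TPM of 1 in both libraries were 15 members, of which 8 had no count in either library. The structural subunits had a median of 5.49 TPM in replicate 1 and 5.26 in replicate 2, or 5.38 ± 0.16 (SD, n = 2). The 79 detected members had medians of 6.0 and 5.72 TPM, and detected nuclear protein-coding genes 4.42 and 4.15. A typical detected member thus stood somewhat above a typical detected gene. All members together took 648.4 and 633.98 TPM, which is 0.736% and 0.759% of the TPM of nuclear protein-coding genes.

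The libraries held 22646991 and 21471673 expected counts, and members held 46032 and 45594 of them. Protein-coding genes of the nucleus took 72.6% and 71.5% of the counts, but only 8.81% and 8.35% of the TPM, so TPM values here are low for all such genes. Defining markers of neutrophils were present: all 10 on the list were detected, led by S100a9 at 1123.48 and 1274.62 TPM and S100a8 at 785.62 and 712.03. Markers of other blood cells were present too. All 10 B cell markers were detected (summed level 726.79 and 651.21 TPM, led by Ighm at 290.08 and 261.34), as were 5 of 8 red cell markers (4328.94 and 4264.26), 7 of 8 T cell markers (29.96 and 30.05), 6 of 8 monocyte markers (30.29 and 28.13) and 5 of 6 platelet markers (24.24 and 24.57). Of the 6 non-blood markers none was detected. B cells, red cell precursors and monocytes also carry respiratory chain RNA, and the part of these cells in the levels below was not tested.

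Complex V had the highest median of the 5 complexes, followed by II, I, III and IV. The medians over subunits were 7.67 ± 0.43 TPM for complex V (16 subunits), 6.25 ± 0.30 for complex II (4), 4.98 ± 0.21 for complex I (36), 4.57 ± 0.49 for complex III (9) and 3.97 ± 0.40 for complex IV (18; SD, n = 2 for each). On the log2(TPM + 1) scale, V exceeded II by 0.26 ± 0.01 and II exceeded I by 0.28 ± 0.01. Complex I exceeded III by only 0.11 ± 0.08, and the order of this pair turned around when only protein-coding transcripts were counted. Complex III exceeded IV by 0.18 ± 0.03, a difference that turned around in the alignment-free table, a second quantification of the same reads. In that table complexes II and I lay close together, at 3.40 ± 0.13 and 3.38 ± 0.19. The set of complex IV includes 7 isoforms with at most 1 count per library. Over its 11 detected subunits alone the median was 8.17 ± 0.88 TPM, above that of complex V but within the spread. On protein-coding transcripts these 11 had a median of 6.935 ± 0.262, against 5.565 ± 0.615 for the 16 subunits of complex V. The last place of complex IV thus depended on the 7 isoforms. The spread inside each complex was much wider than the spread between complexes. In complex I the highest subunit stood 12.8-fold above the lowest, in complex II 15.0-fold, in complex III 17.2-fold and in complex V 60.3-fold.

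**Figure D1:**
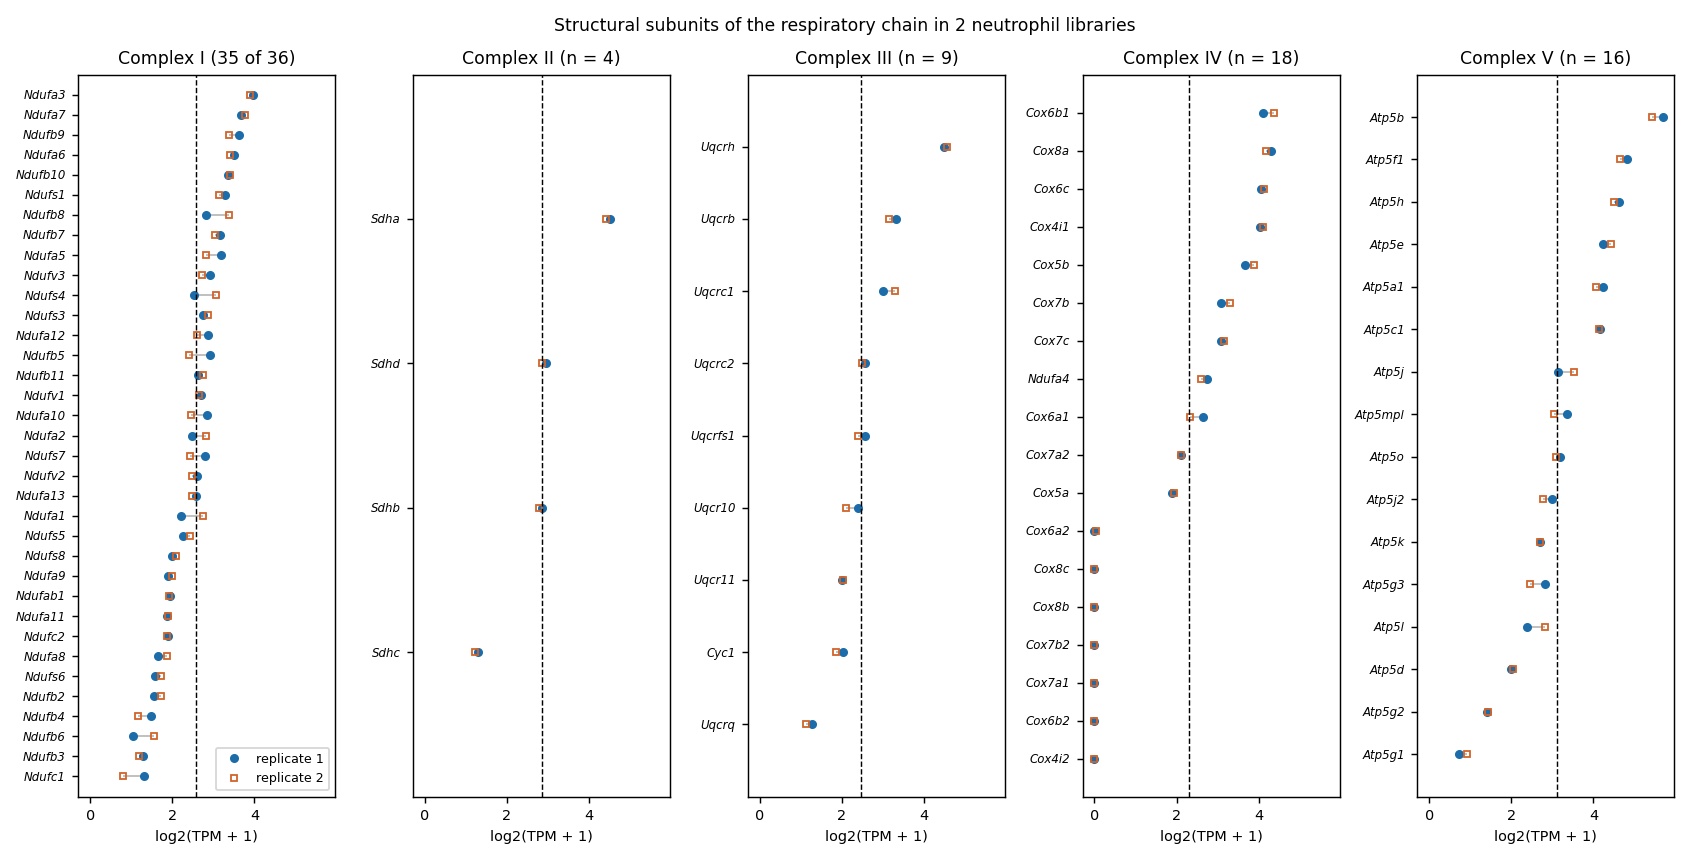
Level of 82 of the 83 structural subunits, as log2(TPM + 1) on the horizontal axis, in 5 panels for complexes I to V. Filled circles are replicate 1, open squares replicate 2, and the dashed line is the mean over the libraries of the panel's median. Complex V reaches highest, with Atp5b at 50.51 and 41.69 TPM, and 7 subunits of complex IV lie at or next to 0.

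Among its nuclear-encoded subunits, complex V was led by Atp5b of the catalytic head, followed by Atp5f1 and Atp5h of the peripheral stalk. Atp5b, the beta subunit that carries the catalytic sites (chr10:128083273-128090391, plus strand), had 50.51 and 41.69 TPM, the highest level of any member. Its partner in the head, the alpha subunit Atp5a1, had 17.77 and 15.78, the gamma subunit Atp5c1 of the central stalk 16.84 and 16.55, and the epsilon subunit Atp5e 17.84 and 20.46. The delta subunit Atp5d was lower at 2.96 and 3.14 TPM. The 4 subunits of the peripheral stalk, which holds the head still, ranged in mean from 7.81 TPM for Atp5o to 25.7 for Atp5f1, with Atp5h at 23.83 and 21.58. The 4 small membrane subunits Atp5l, Atp5k, Atp5j2 and Atp5mpl lay close together, between 5.11 and 8.19 TPM in mean. This did not hold in the M4 table, where Atp5l had 1.16 and 1.77 TPM. Of the 3 c subunit genes, Atp5g3 had 6.04 and 4.50 TPM, while Atp5g2, at 1.66 and 1.69, and Atp5g1, at 0.65 and 0.88, were the lowest of the complex. The M4 table, on an older gene annotation, put Atp5g2 at 6.31 and 7.08, above Atp5g3 at 6.10 and 4.54. Summed over all 3 genes the c subunit had 8.35 and 7.07 TPM, or 13.06 and 12.5 in the M4 table, below the beta subunit in both tables, although each ATP synthase is known to hold more c than beta subunits.

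The nuclear-encoded subunits of complex I spanned 1.12 to 14.3 TPM in mean, and 35 of 36 were detected. Among the highest were Ndufa3, a small membrane-arm subunit, with 14.69 and 13.95 TPM, Ndufa7 with 11.82 and 12.64, and Ndufb9 with 11.42 and 9.35. The lowest were Ndufc1 with 1.5 and 0.74 TPM and Ndufb3 with 1.44 and 1.28. In the M4 table Ndufa11, at 2.68 and 2.74 in the main table, was lower still, at 0.41 and 0.44. The 7 core subunits, which carry the flavin and the iron-sulfur clusters, had a median of 5.50 ± 0.33 TPM and all were detected. The 29 supernumerary subunits, which surround the core, had 4.66 ± 0.16. The core exceeded the supernumerary subunits by 0.20 ± 0.03 on the log2 scale, which is small beside the range inside either set. On protein-coding transcripts the difference turned around, to -0.14 ± 0.04.

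The assembly factors of complex I, which build the complex without staying in it, were lower than its subunits. The 8 Ndufaf genes had a median of 1.03 ± 0.06 TPM, and complex I subunits exceeded them by 1.56 ± 0.01 on the log2(TPM + 1) scale (SD, n = 2). The highest was Ndufaf7, a methyltransferase, with 2.62 and 2.45 TPM, but in the M4 table it had 0.80 and 0.77, below Ndufaf1 and Ndufaf3. Ndufaf1 had 1.73 and 1.14, Ndufaf3 1.46 and 1.26, and Ndufaf5 1.23 and 1.06. The other four, Ndufaf8, Ndufaf4, Ndufaf2 and Ndufaf6, lay under 1 TPM in both libraries, with means from 0.64 to 0.84. Atp5s, a further factor counted with complex V, had 0.99 and 0.55.

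Complex II was led by its catalytic flavoprotein. Sdha, which oxidises succinate (chr13:74322254-74350280, minus strand), had 21.56 and 20.21 TPM. Sdhb, the iron-sulfur subunit, had 6.23 and 5.85, so Sdha stood 3.46 and 3.45 times above it. The membrane anchors Sdhd and Sdhc, which hold the coenzyme Q site, had 6.69 and 6.22 TPM and 1.45 and 1.33 TPM. Sdha was highest and Sdhc lowest in both libraries, and Sdhb and Sdhd lay close to each other between them.

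Among its nuclear-encoded subunits, complex III was led by a small acidic subunit, not by the redox subunits. The subunit encoded in mitochondrial DNA, mt-Cytb, was higher at 65.16 and 54.58 TPM. Uqcrh, known as the hinge protein (chr4:116066965-116075071, minus strand), had 21.53 and 22.56 TPM. Uqcrb followed with 9.01 and 7.93, and the core proteins Uqcrc1 and Uqcrc2 with 7.07 and 8.85 and with 4.91 and 4.64. The nuclear-encoded redox subunits were Uqcrfs1, the Rieske iron-sulfur protein, at 4.91 and 4.22, and Cyc1, cytochrome c1, at 3.05 and 2.62. The lowest was Uqcrq with 1.40 and 1.17, so Uqcrh stood 15.4 and 19.3 times above it.

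In complex IV each set of isoforms resolved into one expressed gene and silent relatives. The highest nuclear-encoded subunits were Cox6b1 with 16.29 and 19.61 TPM and Cox8a with 18.70 and 16.96. Next came Cox6c with 15.70 and 16.61 and Cox4i1 with 15.45 and 16.07. The isoforms known from heart and skeletal muscle were absent or nearly so: Cox7a1 and Cox8b had 0 counts in both libraries, and Cox6a2 had 0 and 1. The isoforms known from testis, Cox6b2, Cox7b2 and Cox8c, and the hypoxia and lung isoform Cox4i2 had 0 counts as well. Taking up to 3 counts per library as what a reading of 0 leaves possible, Cox4i1 was at least 284-fold higher than Cox4i2, Cox6b1 at least 164-fold higher than Cox6b2, and Cox7b at least 92.2-fold higher than Cox7b2. Cox8a was at least 112-fold higher than Cox8b and at least 166-fold higher than Cox8c. Cox6a1 took 5.22 and 4.04 TPM beside the single count of Cox6a2. Ndufa4, first described in complex I and now placed in complex IV, had 5.74 and 5.08 TPM, at least 101-fold higher than its hypoxia-linked relative Ndufa4l2, which had 0 counts. These limits cover counting error only and hold for the main table. The alignment-free table placed a few counts on silent isoforms, with 5 and 0 on Cox8c, 0 and 5 on Cox7b2, 1 and 2 on Cox8b and 0 and 2 on Cox6b2. There Cox8c had 0.22 TPM in replicate 1 against 31.5 for Cox8a. The deposited upper TPM bound of Cox6b2, 0.513 and 0.503, is also wider than the counting limit.

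The Cox7a family departed from this pattern. Its leading gene was Cox7a2l (chr17:83501918-83517330, minus strand), whose product joins complexes III and IV into supercomplexes and is known to be shortened in C57BL/6 mice. It had 23.28 and 23.72 TPM, rank 3 of all members by mean, and at least 208-fold more than Cox7a1. The ordinary subunit Cox7a2 had 3.29 and 3.34. Cox7a2l thus took 87.6% ± 0.03 of the family's TPM (SD, n = 2) and stood 7.08 and 7.10 times above Cox7a2. On protein-coding transcripts alone the ratio was 11.5 and 9.91. It was smaller in the alignment-free table, where Cox7a2l had 32.8 and 33.2 TPM and Cox7a2 9.68 and 9.10.

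**Figure D2:**
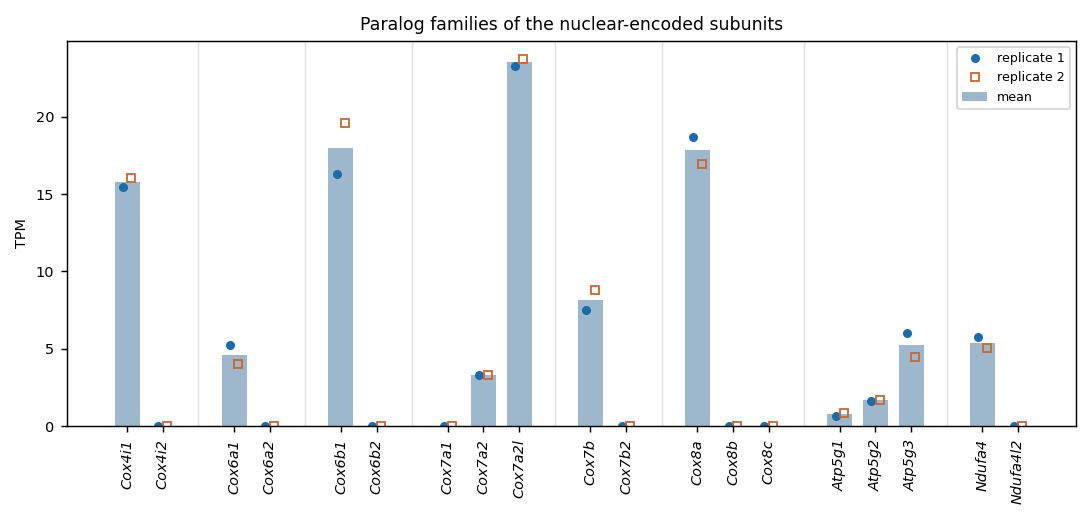
TPM of the members of 8 paralog families (vertical axis, linear from 0), with bars for the mean of 2 libraries, filled circles for replicate 1 and open squares for replicate 2. In 5 families of 2 genes and in the Cox8 family one gene holds nearly all TPM, while Cox7a2l at 23.28 and 23.72 stands above Cox7a2, and all 3 Atp5g genes have counts.

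The expressed and the silent Cox8 gene also differ in the bases before their start sites. The 100 bases before the RefSeq start (GRCm38.p6) of Cox8a, at chr19:7217617-7217716, and of Cox8b, at chr7:140900447-140900546, both on the minus strand, are shown with each CpG pair in capitals.
Cox8a: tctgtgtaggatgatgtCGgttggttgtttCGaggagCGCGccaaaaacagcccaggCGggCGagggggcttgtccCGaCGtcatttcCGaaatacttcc
Cox8b: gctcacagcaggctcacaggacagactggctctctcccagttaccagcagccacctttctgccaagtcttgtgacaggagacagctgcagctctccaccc
Cox8a holds 9 CpG pairs in this window and Cox8b 0. Cox7b and Cox7b2 went the other way, with 3 pairs before the expressed gene and 7 before the silent one. Over windows of 300 bases, from 250 before to 50 after the start, the 66 detected members with an entry had a median of 20 CpG pairs. The 4 silent members with an entry (Cox6b2, Cox7a1, Cox7b2 and Cox8b) had 8.5, and 17491 protein-coding genes had 15.

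Motif letters of 3 factor families linked to respiratory genes were searched in the same windows on both strands, for the 76 member symbols of 94 that matched the RefSeq table. CGCATGCG, the core of the NRF1 motif, was held by 14.5% of members and by 2.77% of all protein-coding genes in the table. AAGATGGC, the YY1 motif, was likewise held by 14.5%, against 3.57%, and CCGGAAG, an ETS family motif read by GABP, by 23.7% against 12.9%. General promoter motifs did not stand out in this way: CCAAT was held by 44.7% against 42.3%, GGGCGG by 46.1% against 49.2% and TATAAA by 9.21% against 14.8%. None of these motifs contains the letters of another. The comparison is with all genes of the table, whether detected or not. CGCATGCG, CCGGAAG and GGGCGG hold a CpG pair, and windows of detected members held more such pairs than those of all genes (median 20 against 15). The part of base composition in these shares was not tested. No test was made of the shares, and a match is a description of the letters, not of a bound site. RNA of the factors was present, with Nrf1 at 7.82 and 8.60 TPM, Gabpa at 6.37 and 5.16 and Yy1 at 5.77 and 5.71.

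Many members share their promoter region with another gene. A protein-coding gene on the opposite strand started within 1000 bp of 35 of the 95 members, or 36.8%, against 10.8% of nuclear protein-coding genes. Among detected genes the shares were 40.5% of 79 members and 18.3% of 7673 genes. The partner could be far higher than the member: Ndufs1, the largest core subunit of complex I, starts 8 bp from Eef1b2, a translation elongation factor, and had 8.70 and 7.79 TPM against 82.59 and 81.33. Ndufa7 starts 10 bp from Rps28, a ribosomal protein gene with 60.25 and 66.04 TPM. Partners could also be lower, as for Sdha, which starts 29 bp from Ccdc127 with 1.89 and 1.16 TPM. Sdhd and Timm8b, a gene of mitochondrial protein import, start 98 bp apart and lay close, at 6.69 and 6.22 against 6.09 and 5.58 TPM. Whether counting used the strand is not stated in the sources used here, so reads where such genes overlap could have been assigned to either.

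Gene totals held more than coding RNA. GENCODE lists, beside protein-coding transcripts, transcripts that retain an intron, processed transcripts with no reading frame and transcripts marked for nonsense-mediated decay. Protein-coding transcripts took 74.8% ± 0.63 of the structural subunits' TPM (SD, n = 2), close to the 72.8% ± 0.65 over detected nuclear protein-coding genes. Retained introns took 11.6% ± 0.29, processed transcripts 10.6% ± 1.07 and decay transcripts 2.97% ± 0.14. A coding share under 50% was found in 12 of 74 detected subunits, or 16.2%, against 23.1% of the detected genes.

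Those 12 include the leading genes of complex V. For Atp5b only 19.03 and 18.59 TPM lay on its protein-coding transcript, while Atp5b-206, a short processed transcript, took 18.85 and 15.74. Atp5b therefore stood 2.84 and 2.64 times above Atp5a1 by gene TPM, but 1.26 and 1.25 times by coding TPM, and its rank among members was 5 by that measure. By expected counts most of Atp5b was coding: its protein-coding transcript held 3256.67 and 3210.53 of 4406 and 4169, and Atp5b-206 held 576.15 and 493.87. Atp5f1 had 27.37 and 24.08 TPM as a gene and 11.92 and 9.0 on coding transcripts, with 12.53 and 11.37 on a decay transcript. Ndufa5, a supernumerary subunit, had a coding share of 16.8% ± 1.64, the lowest of the detected subunits. By coding TPM the member with the highest level was Cox7a2l, with 23.14 and 23.69, ahead of Uqcrh with 19.69 and 21.52. Within complex V, Atp5h, Atp5e and Atp5b lay close by this measure, with means of 18.9, 18.8 and 18.8. In the c ring the leader also changed: Atp5g3 took 68.0% ± 6.14 of the 3 genes' TPM, whereas Atp5g2 took 49.5% ± 1.14 of their coding TPM. How reads of total RNA, which includes unspliced RNA, were divided among overlapping transcripts is an estimate of the authors' program.

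**Figure D3:**
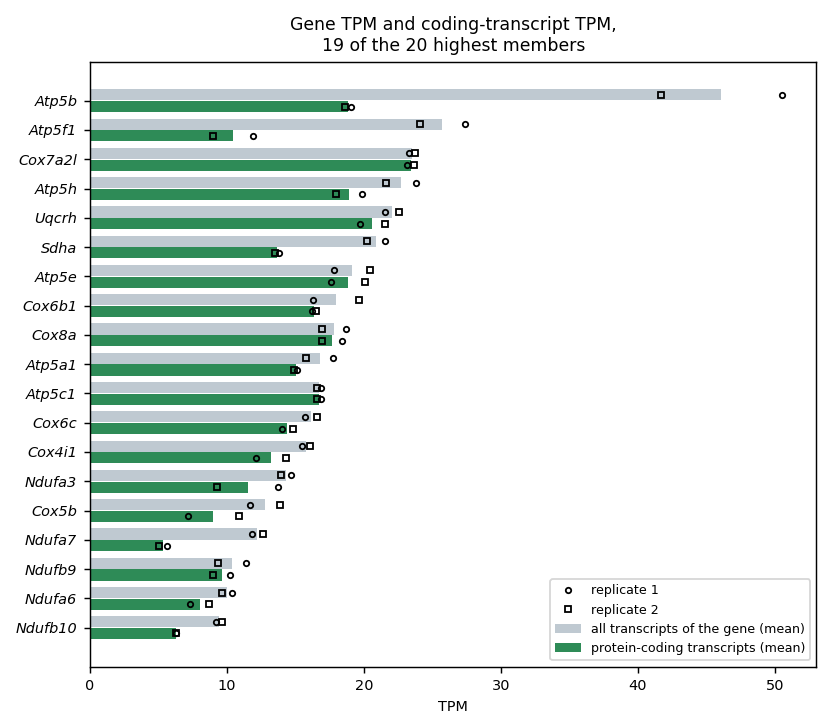
TPM (horizontal axis, from 0) of 19 of the 20 members with the highest mean, over all transcripts of the gene (grey bars) and over protein-coding transcripts (green bars), as means of 2 libraries with circles for replicate 1 and squares for replicate 2. Coding TPM falls far short of gene TPM in Atp5b, Atp5f1 and Ndufa7, and matches it in Cox7a2l at 23.14 and 23.69.

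Near-identical copies hold counts that the members may share. With a cut-off of 95% identity across 100 or more coding bases, 22 members had a pseudogene copy at another locus, with 44 copies in all. Of these, 17 had at least 1 count in both libraries and 8 had at least 10. The copies held 1345 and 1171 expected counts together. For Atp5g2 the copies held more than the gene, with 331.29 and 320.58 counts against 83.71 and 89.42, all of them in the identical Gm10175. For Ndufb4, a supernumerary subunit of complex I, the copies held 289.29 and 246.23 against 137.71 and 68.77, and its coding sequence of 390 bases is repeated without a difference in Ndufb4c. For Atp5l, 8 copies held 377.1 and 315.61 counts against 477.9 and 596.39. Uqcrb, whose copy differs at several bases, had 325.64 and 293.84 counts against 86.37 and 77.16 in its 3 copies. Set against the gene's own counts, copies held 35.8% and 33.3% for Ndufs5, 29.2% and 33.8% for Ndufa12, and 26.5% and 26.3% for Uqcrb. Levels of these members, and most of all those of Atp5g2, Ndufb4 and Atp5l, are therefore uncertain. Whether the copies themselves are transcribed cannot be told apart from misassigned reads of the gene. Whole-number counts in both libraries, which a gene without shared reads has, were found in 79.7% of the 79 detected members and in 84.5% of the detected genes.

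**Figure D4:**
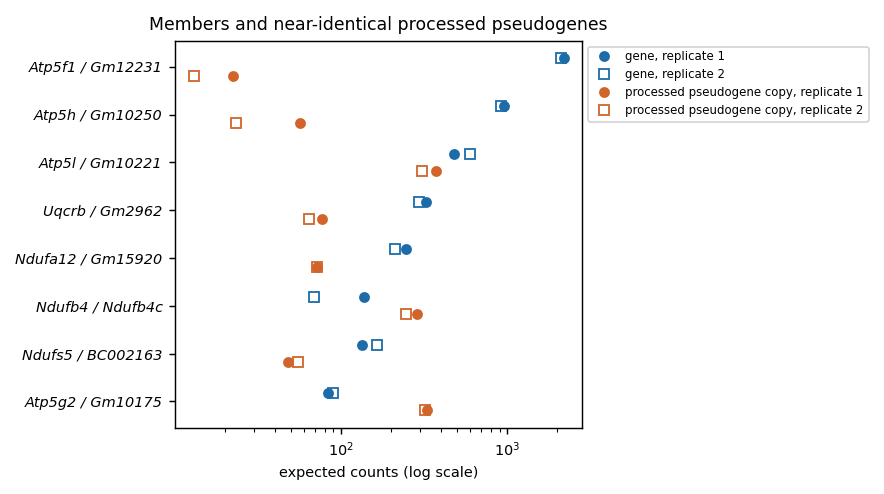
Expected counts (horizontal axis, log scale) of 8 members and of the pseudogene copy of each that had at least 10 counts in both libraries, in blue for the gene and orange for the copy, filled for replicate 1 and open for replicate 2. The copies of Atp5g2 (331.29 and 320.58) and Ndufb4 lie to the right of their genes, and the other 6 lie to the left.

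Between the libraries no member differed by the rule used, a (TPM + 1) ratio of at least 2-fold limited to genes that reach 1 TPM in one of the libraries and 50 expected counts in the library with more. Of 80 members tested 0 met it, against a background of 0.923% of 9097 genes (0.561% higher and 0.363% lower in replicate 2). The members' count of 0 is not far from that share. The largest ratios were 1.46 upward, for Ndufa1 with 3.63 and 5.75 TPM and Ndufs4 with 4.77 and 7.41, and 1.44 downward, for Ndufc1. For Ndufs4 the M4 table gave 2.59 and 2.65 TPM, and the depth-scaled count ratio was 1.13 with an interval of 0.974 to 1.31. The exact 95% interval of the count ratio of replicate 2 over replicate 1, scaled to depth, excluded 1 for 25 of the 80 members tested, or 31.25%, against 43.1% of tested genes with counts in both libraries. It ran from 1.43 to 2.95 for Ndufb6, with 49 and 95 counts, and from 0.389 to 0.709 for Ndufb4, with 137.71 and 68.77. The deposited TPM intervals of the libraries did not overlap for 15 of the 79 detected members, or 19.0%, against 26.5% of the detected genes. Over the genes tested, the median log2 ratio of TPM + 1 was -0.07 for the 80 members and -0.08 for all. Atp5b shows that TPM and counts can part: its counts, 4406 and 4169, had a depth-scaled ratio of 0.998 with an interval of 0.956 to 1.04, while its TPM was 50.51 and 41.69.

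**Figure D5:**
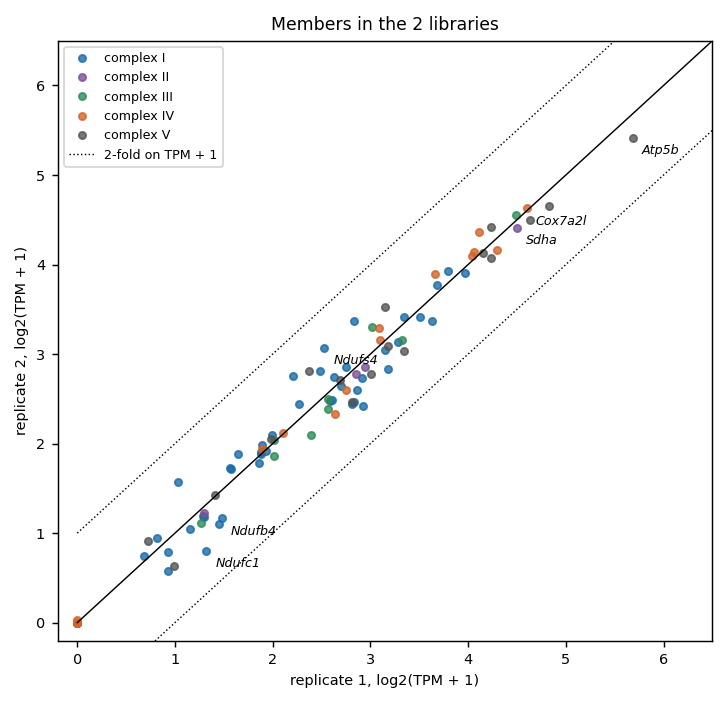
Each member's level in replicate 1 (horizontal axis) and replicate 2 (vertical axis), both as log2(TPM + 1), coloured by complex. The solid line marks equal levels and the dotted lines a 2-fold ratio of TPM + 1. No point lies beyond the dotted lines, and the largest ratio is 1.46.

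The alignment-free table gave higher TPM for all members with at least 50 counts. Its ratio to the main table had a median of 1.68 over 82 members and 1.82 over detected protein-coding genes, whose central range, from percentile 5 to 95, was 1.42 to 2.88. Ndufc1 moved most, to 5.10 and 3.36 TPM, or 3.40 and 4.55 times the main value. Uqcrq followed with 5.6 and 2.72 and Sdhc with 4.0 and 3.98, so the lowest members of complexes I, II and III were less low by that measure. The ratio was smallest for Atp5f1 at 1.34 and 1.20, for Atp5l at 1.26 and 1.38 and for Ndufa4 at 1.31 and 1.37.

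Genes that work with the complexes filled out the picture. The mitochondrial ribosomal proteins, which make the subunits encoded in mitochondrial DNA, were detected in 61 of 78 cases. Their median was 2.17 ± 0.11 TPM, and the structural subunits exceeded it by 1.01 ± 0.01 on the log2(TPM + 1) scale. Of the 13 subunits encoded in mitochondrial DNA 9 were detected, led by mt-Co1 at 793.79 and 639.88 TPM and mt-Atp8 at 485 and 616.02, whereas mt-Co2, mt-Atp6 and mt-Nd4l were listed at 0 TPM and mt-Co3 at 0 and 0.05. How reads shared with nuclear copies of mitochondrial DNA were treated is not stated in the sources used here, so these zeros do not show that the RNA was absent. Their sum, 1684.48 and 1602.54 TPM, was above that of all nuclear members.

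Carriers of electrons and nucleotides were present in most cases. Cycs, cytochrome c, had 3.79 and 4.03 TPM, and all 9 genes of electron carriers and other coenzyme Q reducers were detected, with Sqor, the sulfide oxidase, highest at 6.30 and 6.24. Of 8 adenine nucleotide, phosphate and related inner- and outer-membrane carriers 7 were detected, led by Ucp2 at 42.94 and 36.89, the phosphate carrier Slc25a3 at 21.75 and 19.99 and the ADP/ATP carrier Slc25a5 at 20.88 and 19.47. Atpif1, the inhibitor of ATP hydrolysis by complex V, had 11.84 and 10.37.

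Assembly and synthesis factors were mostly low. Of 11 coenzyme Q synthesis genes 6 were detected, with Coq8a highest at 3.98 and 3.77 TPM and Coq3 lowest at 0.21 and 0.34. Assembly factors were detected in 6 of 8 cases for complex I outside the Ndufaf genes, in 1 of 4 for complex II, in 4 of 6 for complex III and in 15 of 24 for complex IV. Of the complex V factors Atpaf2 had 2.54 and 1.70 TPM and Atpaf1 0.78 in both libraries. Complex IV held the exceptions: the copper chaperone Cox17 had 29.11 and 25.79 TPM, Pet100 14.04 and 12.45 and Cox20 11.10 and 8.28, while Pet117 was listed at 0 in both libraries. The single detected factor of complex II was Sdhaf2, which adds the flavin to Sdha, at 5.69 and 6.28.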

How the data were processed

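Per the file headers, the authors deposited gene tables on GENCODE M21 and M4 (mm10, per the labels) with an expected count and a TPM per gene, and transcript tables with an estimated count and a TPM. Interval bounds of TPM, deposited by the authors in the same tables, are treated as a score. The program behind each table is not given in the sources used here. Members and lists were chosen with earlier results of these data known. Levels are M21 gene TPM, with a pseudocount of 1 on the log2 scale. Expected counts were rounded for counting intervals and for the scale factors of edgeR 4.0.16 and DESeq2 1.42.0. Both libraries enter every value, as the mean ± SD of 2, and with 1 group no test between conditions was possible. Entries without a gene name (26248) held 37 and 46.43 counts and were left out.

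Copies were found with BLAST+ 2.17.0 from M21 coding sequence, at 95% identity over 100 bases. Promoters are RefSeq windows on GRCm38.p6. A count of 0 allows up to 3 counts. Intervals cover counting error only. The call rule was tested on simulated data. Named genes are the 4 highest and 2 lowest subunits of each complex, all paralogs, all Ndufaf genes, all members under 1 TPM and the 3 with the largest table ratio in each direction; of the other lists, the 3 highest and the lowest. The others, among them Atp5c1, Atp5d, Atp5l, Ndufa1, Ndufa5, Ndufb4, Ndufb6, Ndufs1, Ndufs4, Uqcrfs1 and the factor and partner genes, were chosen after their values were seen. Alternatives were the M4 table, the alignment-free table, other pseudocounts, filters and scalings, and leaving out each library. Values were computed in Python 3.11.15 (pandas 2.3.3, numpy 2.4.6, scipy 1.17.1), and figures were made in matplotlib 3.10.9. The values of 1 member are not reported here by name, though it enters all counts and medians.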

Additional observations from a re-analysis of the deposited data

How the results depend on the processing

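Values here are medians of log2(TPM + 1) unless said otherwise. Of 78 alternative values 36 stayed within the spread between the libraries or within 1.5 times a count, 40 moved beyond it and 2 reversed. The 36 include means with a library left out, which could not move beyond that spread. The 40 include medians with a pseudocount of 0.1 or after rescaling. These settings change the scale of the medians themselves, so such moves say little about stability. For all structural subunits the median, 2.67, moved to 2.73 in the M4 table, 3.40 in the alignment-free table, 2.45 with a pseudocount of 0.1, 5.99 after rescaling to nuclear protein-coding genes, 2.78 with at least 10 counts and 2.28 on protein-coding transcripts, an alternative chosen after seeing the data, as was the one with the second Atp5o model. In the alignment-free table the medians of complexes I to V were 3.38, 3.40, 2.90, 3.02 and 3.73. With a pseudocount of 0.1 they were 2.34, 2.66, 2.22, 2.00 and 2.96, after rescaling 5.88, 6.20, 5.76, 5.54 and 6.5, and on protein-coding transcripts 2.11, 2.56, 2.32, 2.07 and 2.71. Complex IV was 2.18 in the M4 table and 3.19 with at least 10 counts, which removes its silent isoforms. The excess of structural subunits over mitochondrial ribosomal proteins, 1.01, was 1.09 in the M4 table, 1.12 in the alignment-free table, 1.27 with a pseudocount of 0.1, 1.28 after rescaling and 1.12 with at least 10 counts. At a TPM of at least 5, 41 members counted as detected. With counts scaled by TMM or by DESeq2 size factors, 1 member differed between the libraries: Ndufb6, with 49 and 95 counts and scaled ratios of 2.05 and 2.04. All genes tested were called in 1.49% and 1.48% of cases under these scalings. Ratios of scaled counts carry no length term. The members' median log2 ratio between libraries, -0.0039, became -0.13 in the alignment-free table and -0.068 with at least 50 counts, and turned to 0.042 under TMM and 0.035 under DESeq2 size factors; the cause was not tested. The coding share of TPM, 74.8%, was 69.9% in the alignment-free table and 78.1% by counts. Of 82 members with at least 50 counts in both libraries, 8 had an M4 mean that differed from the main one by over 1.5 times (Atp5g2, Atp5l, Atp5s, Ndufa11, Ndufaf7, Ndufb4, Ndufs4 and Ndufs8), a comparison chosen after seeing the data. Leaving out each library gave medians of 2.65 to 2.70 for all structural subunits and 79 to 80 detected members. With 2 libraries, leaving out 1 cannot move a mean beyond their SD, so this does not show that the means are stable. No paired analysis was possible because there is 1 group. Genes of few counts, such as Ndufaf8 with 20 and 50, are the least certain.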
